A study of Mus musculus with 6 samples.

Results

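The cullins, the F-box proteins and the Kelch-like proteins are the scaffolds and many of the substrate adaptors of cullin-RING ubiquitin ligases. They were taken from the gene table of a fast muscle of the lower leg, extensor digitorum longus (EDL), by symbol: every gene named Cul, Fbxl, Fbxo, Fbxw or Klhl with a number, together with Skp1a, Skp2 and Rbx1. Fbxo21, Fbxo30, Fbxo31, Fbxo32, Klhl40 and Klhl41 were left out of this choice. The rule gave 120 of the 24411 genes of the table. They were 8 cullins, 3 core genes (Skp1a, Skp2 and Rbx1), 18 Fbxl, 33 Fbxo, 22 Fbxw and 35 Klhl genes, and 1 RNA matched only by its name, Fbxl12os. Skp2 is itself an F-box protein but was counted with the core genes, not among the F-box genes. Of the 120, 87 passed the filter on low counts and were tested, among 12892 tested genes in all.

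RNA-seq was done on EDL of 3 mAktDKO mice and 3 control mice at 50 weeks of age, all on the C57BL/6J strain. The control mice carried floxed Akt1 and Akt2, and their label names no Cre. The mAktDKO mice carried the same floxed alleles and Cre recombinase expressed from the Mlc1f (myosin light chain) locus, so that both kinases, which act downstream of the insulin and IGF-1 receptors, were to be lost in muscle fibres and not in the other cells of the muscle. The comparison asks which genes of this system differ between the 2 genotypes. Mice are numbered here as the columns of the deposited table number them, 1 to 3 for mAktDKO and 2 to 4 for control. The libraries held between 13738803 and 15445514 counts. Akt2 was at 51.3, 49.1 and 52.7 counts per 1000000 counts (CPM) in mAktDKO and 172, 133 and 143 CPM in control muscle. Akt1 differed less, at 58.9, 56.8 and 51.4 CPM against 66.4, 65.5 and 66.5 CPM, and its counts cover the whole gene, with the floxed exons not resolved. Control mouse 2 stood apart, with the highest value of the 6 mice in 29.0% and the lowest in 28.7% of all tested genes, against at most 20.1% for any other mouse, and named members whose log2 fold change it moved by over 1.5 times, or whose unadjusted p left 0.05 without it, are given without it too.

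In a cullin-RING ligase a cullin holds the RING protein Rbx1, which recruits the ubiquitin-conjugating enzyme, at one end and an adaptor that binds the substrate at the other. Cul1 takes F-box proteins through Skp1, in a complex named SCF, and Cul3 takes BTB proteins directly, of which the Kelch-like (KLHL) proteins are a large group. F-box proteins are sorted by the domain that binds the substrate, with leucine-rich repeats in FBXL, WD40 repeats in FBXW and other domains in FBXO. In striated muscle several KLHL proteins and Fbxo40 are known to be enriched, and SCF ligases are known for their part in protein loss during atrophy.

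Promoter windows of the members, 250 bases before to 50 bases after an annotated start (RefSeq, GRCm38.p6), were found for 94 of the 120 genes. Tested members had a median of 23 CpG dinucleotides in the window and 2 of 71 (2.82%) had under 5, Fbxo40 and Klhl4, against a median of 22 and 5.94% among all tested genes. Members below the filter had a median of 4, and 12 of 23 (52.2%) had under 5, against 36.5% of all 27025 genes with a window. Of these 12, 10 are Fbxw genes of chromosome 9, and without them 2 of 13 (15.4%), Fbxw10 and Klhl10, had under 5, below the share of all genes. These 2 features, CpG and the letters CAGCTG (an E-box, its own reverse complement), were counted after values had been seen. CAGCTG was found in 21.1% of the tested members, 65.2% of those below the filter and 18.3% of all genes, and in 38.5% of those below the filter without the 10 Fbxw genes. 4 windows are shown as examples, each 300 bases, 5′ to 3′ on the strand of the gene. Cul3 (chr1:80340641-80340940, minus strand) is the window of an abundant cullin, and Klhl31 (chr9:77636482-77636781, plus strand) that of the most abundant member; capitals mark CpG, of which there are 29 and 7. Fbxw14 (chr9:109287627-109287926, minus strand) stands for the Fbxw genes at 0 in every mouse, and its capitals mark CAGCTG, found 2 times.
Cul3: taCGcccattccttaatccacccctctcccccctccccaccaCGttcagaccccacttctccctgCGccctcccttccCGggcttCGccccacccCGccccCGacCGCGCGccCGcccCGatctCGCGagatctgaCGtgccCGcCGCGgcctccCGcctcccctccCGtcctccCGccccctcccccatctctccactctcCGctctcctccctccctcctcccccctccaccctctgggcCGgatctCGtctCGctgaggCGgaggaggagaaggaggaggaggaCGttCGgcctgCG
Klhl31: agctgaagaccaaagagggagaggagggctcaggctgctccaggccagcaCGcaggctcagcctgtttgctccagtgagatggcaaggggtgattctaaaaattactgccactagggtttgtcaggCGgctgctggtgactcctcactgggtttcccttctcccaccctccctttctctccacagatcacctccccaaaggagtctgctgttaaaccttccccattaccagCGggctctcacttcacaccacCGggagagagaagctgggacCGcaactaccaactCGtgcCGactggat
Fbxw14: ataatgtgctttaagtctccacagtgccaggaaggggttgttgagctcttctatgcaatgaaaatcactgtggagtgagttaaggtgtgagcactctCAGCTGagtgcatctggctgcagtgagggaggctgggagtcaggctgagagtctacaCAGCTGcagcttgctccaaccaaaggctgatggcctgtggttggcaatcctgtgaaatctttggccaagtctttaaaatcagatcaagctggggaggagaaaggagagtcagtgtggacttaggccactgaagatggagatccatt
Cul7 (chr17:46650088-46650387, plus strand) is shown because it is the single member whose window held GTAAACA, the core letters bound by FoxO factors, which Akt restrains. Both strands were searched, and capitals mark the match, 155 bases before the start.
Cul7: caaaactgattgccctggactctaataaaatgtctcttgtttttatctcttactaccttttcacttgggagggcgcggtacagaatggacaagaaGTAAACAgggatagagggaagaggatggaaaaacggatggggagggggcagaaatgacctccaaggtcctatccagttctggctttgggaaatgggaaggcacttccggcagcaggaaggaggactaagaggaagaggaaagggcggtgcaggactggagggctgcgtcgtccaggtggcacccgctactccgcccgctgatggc
GTAAACA was thus in 1 of 94 members (1.06%), against 4.05% of all genes with a window.

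Levels between genes were compared per kilobase of exon. Klhl31 was the most abundant member, at a mean of 224 CPM per kb, followed by Skp1a at 100.1, Cul3 at 49.5, Klhl24 at 40.9 and Fbxl17 at 33.9 CPM per kb. The ranges of Klhl31 (199 to 262) and Skp1a (88.4 to 109) did not meet each other or any other member, whereas Cul3 (45.0 to 52.4) and Klhl24 (34.1 to 48.1) overlapped. The median over the tested members was 4.72 CPM per kb and the lowest tested was Klhl3 at 0.139. Shares were taken of the counts of the Klhl members, which leave out Klhl40 and Klhl41. Of these, Klhl31 held 58.0%, 59.3% and 60.2% in the mAktDKO mice and 53.9%, 57.4% and 56.5% in the control mice. After Cul3 the most abundant cullins were Cul4a, Cul1 and Cul5, at 25.3, 25.0 and 24.6 CPM per kb with overlapping ranges.

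**Figure D1:**
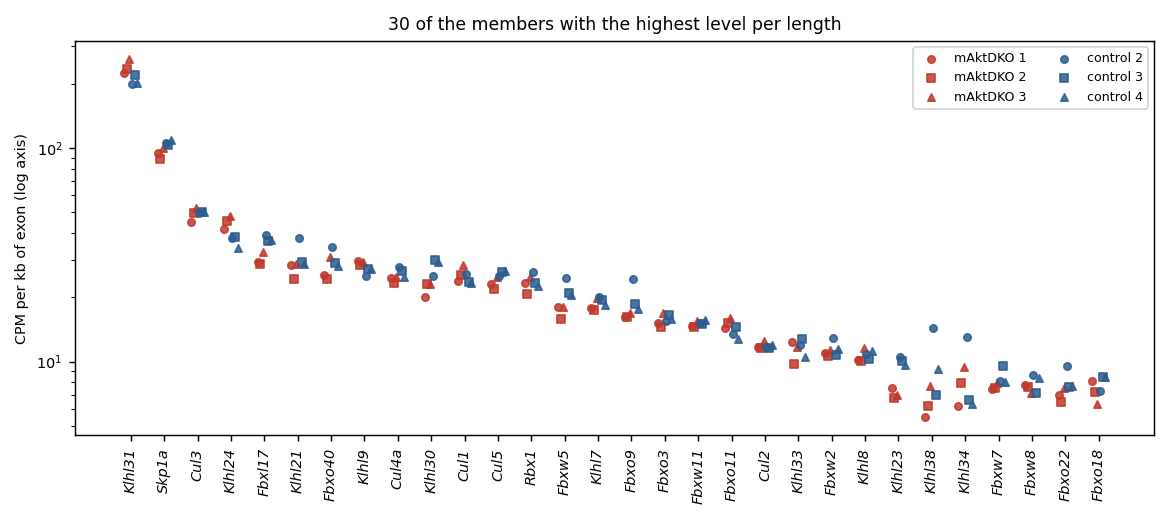
Level of 30 of the most abundant members in CPM per kb of exon, on a log axis, with 1 point per mouse (red mAktDKO, blue control). Klhl31 lies above all others at a mean of 224, and the points of the 2 genotypes overlap or lie close for most genes.

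Of the 33 members below the filter, 16 had no count in any mouse and the other 17 never had more than 14 counts in a mouse. With 0 counts a library allows up to 3, or 0.180 to 0.227 CPM. The 16 comprised 13 Fbxw genes, Fbxo15, Fbxo43 and Klhl1. The 10 of these Fbxw genes with a promoter window all lie on chromosome 9, all held CAGCTG and had 0 to 4 CpG, as in Fbxw14 above. Genes of such a cluster share sequence and are not independent cases, and reads that fit several genes are divided by RSEM. The reads of Fbxl12os, 1 to 10 counts per mouse, were too few to test.

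No member passed the threshold of adjusted p under 0.01 in edgeR's quasi-likelihood test, at which 3 of 12892 tested genes, 0.0233%, were called. At adjusted p under 0.05 there was 1 member, Klhl23, against a background of 1.18%. At an unadjusted p under 0.05 there were 16 of 87 members, or 18.4%, against 24.5% of all tested genes. Of the 87 members, 11 were lower in the mAktDKO mice, against 13.1% of all tested genes, and 5 were higher, against 11.4%. Both shares are near or below the background, so they are not a result about these genes as a group. The values of the 3 mAktDKO mice and of the 3 control mice did not overlap in 29 members, 33.3%, against 31.1% of all tested genes, with 19 lower (background 16.6%) and 10 higher (background 14.6%). The median log2 fold change was -0.07 over the members and 0.02 over all tested genes, with 51 of the 87 lower. Fold changes below are log2 ratios of mAktDKO to control with their standard errors (SE).

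**Figure D2:**
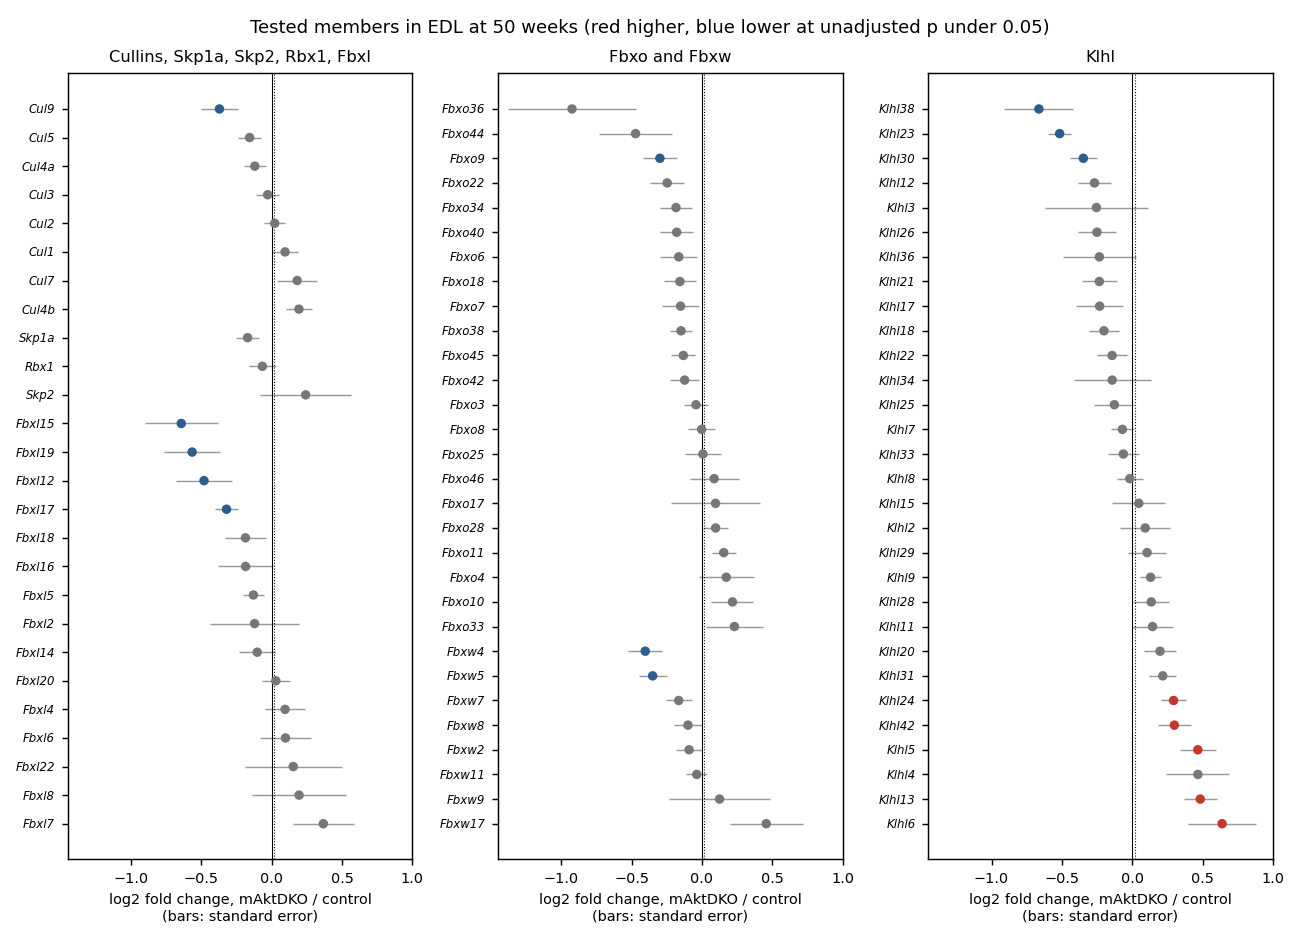
Log2 fold change with its standard error for the tested members reported here, by family; red and blue mark the 5 higher and 11 lower at unadjusted p under 0.05, and the dotted line is the median of all tested genes at 0.02. Under this TMM scaling the F-box genes in color are all on the lower side, and Klhl genes lie on both sides.

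The cullins, the scaffolds of the ligases, differed little between genotypes. Their log2 fold changes ran from -0.37 to 0.19 with a median of -0.0037, 4 lower and 4 higher, and their summed level was 649, 663 and 713 CPM in mAktDKO and 704, 699 and 698 CPM in control muscle. Cul3, the scaffold for Kelch-like proteins, was at 212, 233 and 247 CPM in mAktDKO and 233, 236 and 237 CPM in control muscle. The control values lay inside the mAktDKO range, and the fold of 0.980 had a 95% interval of 0.861 to 1.12. Cul1, the scaffold for F-box proteins, was at 78.2, 83.6 and 93.5 CPM against 84.4, 77.7 and 76.8 CPM, a fold of 1.07 with an interval of 0.928 to 1.23. Its log2 fold change of 0.095 ran from 0.0076 to 0.15 when each mouse was left out. Cul2, which works through elongin, was at 46.9, 46.3 and 50.1 CPM against 46.8, 46.3 and 48.0 CPM, and the interval of its fold was of 0.901 to 1.14.

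Cul9, a large cullin known to bind p53 in the cytoplasm, had the largest difference of the family. It was at 21.7, 21.0 and 22.4 CPM in mAktDKO and 34.1, 24.4 and 25.7 CPM in control muscle. The groups did not overlap, but control mouse 2 was far above the other control mice. The log2 fold change was -0.37 (SE 0.13, adjusted p = 0.137 by edgeR's quasi-likelihood test), and -0.21 without that mouse (adjusted p = 0.245). Cul5, which carries SOCS-box receptors, was at 148, 140 and 160 CPM against 161, 168 and 170 CPM, without overlap, with a fold of 0.897 (95% interval 0.791 to 1.02). Cul4a was at 98.6, 92.8 and 99.4 CPM against 111, 106 and 99.1 CPM. Its paralog Cul4b had the opposite order, at 25.7, 26.8 and 26.5 CPM against 20.8, 24.4 and 23.9 CPM, without overlap and with a fold of 1.14 (0.988 to 1.32), a log2 fold change of 0.19 that was 0.12 without control mouse 2. Cul7, which pairs with Fbxw8 and carries the GTAAACA shown above, was at 18.6, 19.2 and 15.0 CPM against 13.0, 16.3 and 17.4 CPM, and these values overlapped. Its log2 fold change was 0.18 with all mice and 0.065 without control mouse 2.

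Among the core genes, Skp1a, the bridge between Cul1 and the F-box, was at 176, 165 and 186 CPM in mAktDKO and 197, 192 and 204 CPM in control muscle. Each mAktDKO value was under each control value, and the fold was 0.888 (95% interval 0.784 to 1.01, adjusted p = 0.220 by edgeR). Rbx1, the RING subunit shared by most cullins, was at 48.8, 43.4 and 52.0 CPM against 54.7, 48.8 and 47.3 CPM, with overlap (log2 fold change -0.07, with -0.0022 without control mouse 2 and -0.14 without mAktDKO mouse 3). Skp2, the F-box protein that marks the cell cycle inhibitor p27, was near the lower end of what was tested, at 1.59, 1.62 and 1.37 CPM against 1.05, 0.948 and 1.89 CPM. Its interval, from 0.711 to 1.97, leaves room for a large difference in either direction, and its log2 fold change of 0.24 was 0.11 without control mouse 2, 0.062 without control mouse 3 and 0.61 without control mouse 4.

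Of the 46 tested F-box genes, 29 (63.0%) had a lower value and 17 a higher one, against 47.5% lower among all tested genes, with a median log2 fold change of -0.11. At an unadjusted p under 0.05, 7 were lower (15.2%, against 13.1% of all tested genes) and 0 higher (against 11.4%), so the share of lower calls was near the background. None passed adjusted p under 0.05 in edgeR, and Fbxl17 did in DESeq2 (adjusted p = 0.0212). The summed level of the F-box genes of this choice was 1178, 1166 and 1255 CPM in mAktDKO and 1361, 1282 and 1269 CPM in control muscle. The groups did not overlap, but the highest mAktDKO sum, 1255, was close to the lowest control sum, 1269. Fbxl17 alone, at 163 CPM in mAktDKO mouse 3 and 185 CPM in control mouse 4, differed by more than these 2 sums. The gap between the sums thus rested on Fbxl17. The split moved with the scaling: with library totals in place of TMM, which moved the median of all genes from 0.02 to 0.16, the split was 3 lower and 4 higher, and 5.02% of all genes were lower and 23.0% higher at the same p. Relative to the median of all genes the F-box median was -0.13 under both scalings. Without control mouse 2 the split was 4 lower and 0 higher, against 10.2% and 9.05% of all genes. With the trend on exon length removed it was 9 and 0, against 14.3% and 9.39% of all genes.

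Of the Fbxl genes, 4 of 16 (25%) were lower at an unadjusted p under 0.05 and none higher, against 13.1% and 11.4% of all tested genes. Fbxl17, known for the quality control of BTB-domain dimers and the most abundant of the class, was at 146, 142 and 163 CPM in mAktDKO and 195, 184 and 185 CPM in control muscle. The groups were well apart, with a log2 fold change of -0.32 (SE 0.08, adjusted p = 0.0752 by edgeR), and p stayed under 0.05 in all 6 fits that left out 1 mouse. Fbxl19, whose protein binds unmethylated CpG-rich DNA, was at 2.28, 2.70 and 2.54 CPM against 3.29, 4.30 and 3.55 CPM, a log2 fold change of -0.57 (SE 0.20, adjusted p = 0.134). Fbxl15, known to target the ligase Smurf1, was at 1.71, 1.86 and 1.23 CPM against 2.94, 2.55 and 2.04 CPM, and Fbxl12 at 3.61, 3.17 and 2.61 CPM against 5.03, 3.87 and 4.23 CPM. Both were lower in every mAktDKO mouse. Without control mouse 2 their log2 fold changes went from -0.64 to -0.51 and from -0.48 to -0.37, and neither then had an unadjusted p under 0.05. Both lie over an exon of another gene on the opposite strand. Fbxl15 shares 345 bases with Cuedc2 and Fbxl12 shares 1450 bases with Ubl5, and whether the counting used strand is not given in the sources used here.

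Of the Fbxo genes, 1 of 22 (4.55%) had an unadjusted p under 0.05, against 24.5% of all tested genes. This was Fbxo9, at 41.7, 41.6 and 43.5 CPM in mAktDKO and 62.4, 48.0 and 45.6 CPM in control muscle. The 3 mAktDKO values were close together, and control mouse 2 was again the highest. The log2 fold change was -0.30 (SE 0.12, adjusted p = 0.171 by edgeR) with all mice and -0.15 (adjusted p = 0.337) without that mouse. Fbxo40, a muscle-enriched adaptor known to target IRS1 of the insulin pathway, was at 139, 133 and 170 CPM against 189, 158 and 154 CPM, and mAktDKO mouse 3 lay among the controls (fold 0.883, 95% interval 0.734 to 1.06). Its log2 fold change was -0.18 with all mice, -0.084 without control mouse 2 and -0.31 without mAktDKO mouse 3 (adjusted p = 0.188 by edgeR). Fbxo22 was at 15.9, 14.7 and 17.1 CPM against 21.7, 17.4 and 17.5 CPM, a log2 fold change of -0.25 that was -0.14 without control mouse 2. Fbxo38 was at 26.3, 27.9 and 28.2 CPM against 31.0, 29.8 and 30.5 CPM, also without overlap. Fbxo36 had the largest fitted difference of all members, -0.92, but at only 0.697, 0.719 and 0.274 CPM against 1.40, 0.657 and 1.21 CPM, with overlap and a standard error of 0.45.

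Of the Fbxw genes, 2 of 8 (25%) were lower at an unadjusted p under 0.05, against 13.1% of all tested genes, and none was higher. Fbxw5, a WD40 adaptor, was at 42.9, 37.9 and 43.1 CPM in mAktDKO and 58.9, 49.8 and 49.1 CPM in control muscle, a log2 fold change of -0.35 (SE 0.10, adjusted p = 0.0908 by edgeR). Fbxw4 was at 13.8, 14.0 and 14.7 CPM against 21.9, 17.1 and 17.2 CPM, a log2 fold change of -0.40 (SE 0.12, adjusted p = 0.0998). In both genes the groups were apart and control mouse 2 was highest; without it the log2 fold changes were -0.26 and -0.28. Fbxw7, the adaptor for cyclin E and Myc, was at 40.6, 40.7 and 43.4 CPM against 44.2, 51.9 and 43.7 CPM, barely apart. Fbxw11, a beta-TrCP protein, was at 61.4, 60.3 and 64.7 CPM against 63.3, 62.4 and 65.5 CPM, with a 95% interval of the fold of 0.869 to 1.09. With each mouse left out, the log2 fold change of Fbxw7 (-0.17) ran from -0.21 to -0.082, and that of Fbxw11 (-0.037) from -0.082 to -0.016. Fbxw17 was higher in every mAktDKO mouse, at 1.78, 1.74 and 1.78 CPM against 1.54, 1.09 and 1.21 CPM, with an adjusted p of 0.298 by edgeR.

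**Figure D3:**
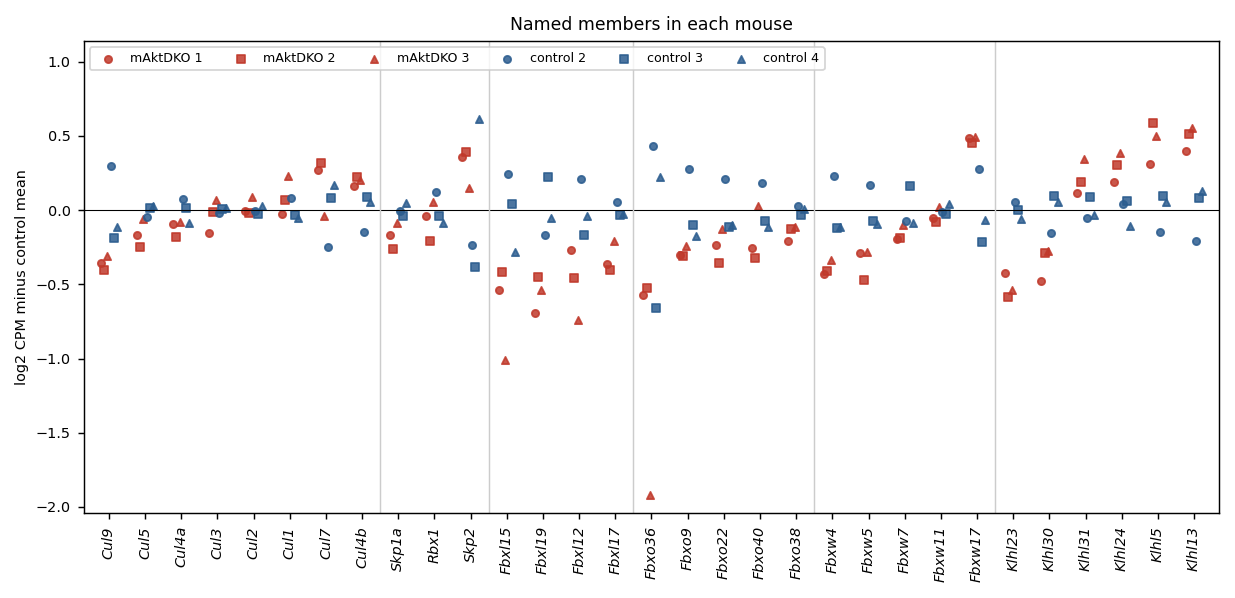
Log2 CPM of the named members in each mouse, minus the mean of the 3 control mice, with 1 symbol per mouse (red mAktDKO, blue control). In Klhl23, Fbxl17 and Klhl30 the red points all lie below the blue ones, in Klhl13, Klhl5 and Klhl24 all above, and the circle of control mouse 2 is the highest point in Cul9, Fbxo9, Fbxw4 and Fbxw5.

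The Kelch-like genes held the member with the smallest p and had differences in both directions. Of the 30 tested, 3 were lower and 5 higher at an unadjusted p under 0.05 (26.7%, against 24.5% of all tested genes), with a median log2 fold change of -0.04. When library totals replaced TMM the split was 2 lower and 9 higher, against 5.02% and 23.0% of all genes, and the family's median relative to that of all genes was -0.06 under both scalings. Without control mouse 2 the split was 2 and 3, against 10.2% and 9.05%, and with the trend on exon length removed it was 6 and 3, against 14.3% and 9.39%. The summed level of the Klhl members, which leave out Klhl40 and Klhl41, was 2508, 2578 and 2824 CPM in mAktDKO and 2393, 2490 and 2317 CPM in control muscle. Without Klhl31 the sums were 1053, 1050 and 1124 CPM against 1102, 1062 and 1009 CPM, with overlap, so the gap between the family sums rested on Klhl31.

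Klhl23 (chr2:69821944-69836651, mm10) was at 34.7, 31.1 and 32.1 CPM in the mAktDKO mice, 32.6 ± 1.85 (SD, n = 3), and at 48.5, 46.7 and 44.7 CPM in the control mice, 46.6 ± 1.92 (SD, n = 3). The groups were separated by more than their spread. The level was 30.1% lower, with a log2 fold change of -0.52 (SE 0.08, 95% interval of the fold 0.614 to 0.797, adjusted p = 0.0394 by edgeR). The estimate stayed between -0.56 and -0.48 when each mouse was left out, with adjusted p between 0.0376 and 0.220. Under the DESeq2 Wald test the adjusted p was 0.00104, the single member past 0.01 there, where 338 genes (3.46%) were called.

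Klhl30 was at 62.3, 70.9 and 71.4 CPM in mAktDKO and 77.9, 92.4 and 90.05 CPM in control muscle, a log2 fold change of -0.35 (SE 0.10, adjusted p = 0.0853 by edgeR), and -0.42 without control mouse 2. In DESeq2 its adjusted p was 0.0356. Klhl38, named here after its values were seen, was at 12.1, 13.7 and 17.1 CPM against 31.9, 15.4 and 20.4 CPM, with overlap. Its log2 fold change was -0.66 with all mice and -0.33 (adjusted p = 0.317 by edgeR) without control mouse 2. Klhl34, chosen in the same way, was at 12.05, 15.3 and 18.2 CPM against 25.2, 12.8 and 12.2 CPM, and its log2 fold change turned from -0.14 to 0.28 without that mouse. Klhl38 shares 1446 exon bases with an antisense gene, Gm15943.

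Klhl31, a muscle protein needed for sarcomere structure in mice, was at 1455, 1528 and 1700 CPM in mAktDKO and 1291, 1428 and 1308 CPM in control muscle. Every mAktDKO value was above every control value, by little, and the fold was 1.16 (95% interval 0.999 to 1.35, adjusted p = 0.205 by edgeR), a log2 fold change of 0.22 that was 0.14 without mAktDKO mouse 3. Klhl24, whose product is known to limit keratin and desmin filaments, was at 342, 371 and 393 CPM against 309, 314 and 278 CPM, a log2 fold change of 0.29 (SE 0.09, adjusted p = 0.104). With library totals in place of TMM its log2 fold change was 0.43 and its adjusted p 0.0471 by edgeR, the single member under 0.05 there, where Klhl23 had an adjusted p of 0.0626. With the trend on exon length removed it was 0.20, and its unadjusted p was then above 0.05. Klhl9, a partner of Cul3 in mitosis that was named after its values were seen, was at 123, 118 and 122 CPM against 105, 113 and 113 CPM.

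Klhl13, which acts with Klhl9 and Cul3 on Aurora B, was at 16.9, 18.3 and 18.7 CPM in mAktDKO and 11.0, 13.5 and 14.0 CPM in control muscle. The groups were apart, with a 1.40-fold higher level (95% interval 1.16 to 1.68, adjusted p = 0.0676 by edgeR). It shares 108 exon bases with a processed pseudogene on the same strand, Gm14523. Klhl5 was at 10.1, 12.2 and 11.5 CPM against 7.34, 8.68 and 8.47 CPM, a fold of 1.38 (1.13 to 1.69, adjusted p = 0.0849). Klhl6 and Klhl42 were also higher in every mAktDKO mouse, and both were named after their values were seen. Klhl6 was at 2.22, 2.64 and 2.06 CPM against 1.40, 1.68 and 1.36 CPM, and Klhl42 was at 14.8, 16.8 and 15.4 CPM against 11.5, 12.6 and 14.2 CPM. Their log2 fold changes were 0.64 and 0.30, and without control mouse 2 they were 0.60 and 0.23 with unadjusted p above 0.05.

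Markers of other cells of the muscle were compared between the same mice. None passed adjusted p under 0.01 in edgeR, and Dpp4 (adjusted p = 0.0474) and Hbb-bs (adjusted p = 0.0180) passed 0.05. Markers called higher or lower below had an unadjusted p under 0.05, as did 11.4% (higher) and 13.1% (lower) of all tested genes. In whole muscle a change in the number of cells of a type and in RNA per cell cannot be told apart. The 4 fibro-adipogenic markers summed to 718 to 826 CPM in mAktDKO and 468 to 591 CPM in control muscle, with 3 of 4 higher at an unadjusted p under 0.05. The 5 macrophage markers summed to 80.6 to 105 CPM against 51.7 to 89.7 CPM, with 2 of 5 higher, and the 5 endothelial markers to 404 to 470 CPM against 334 to 434 CPM, with 2 of 5 higher. The 4 adipocyte markers summed to 21.3 to 65.3 CPM against 13.7 to 34.5 CPM, with 3 of 4 higher. The 2 tendon markers summed to 76.0 to 86.3 CPM against 38.6 to 64.6 CPM, with Tnmd higher. The 3 Schwann cell markers summed to 230 to 314 CPM against 209 to 246 CPM, with 1 of 3 higher (Mbp), and the 2 satellite cell markers to 5.58 to 7.01 CPM against 4.99 to 5.17 CPM, with Myf5 higher. Of 4 smooth muscle and pericyte markers Rgs5 was higher. Of the red cell markers, Hba-a1 overlapped between the groups and Hbb-bs had 370, 154 and 146 counts in the mAktDKO mice and is listed at 0 in each control mouse. Its near-identical copy Hbb-b1 had 2749, 2509 and 1146 counts against 1895, 1562 and 1054, and Hbb-b2 and Hbb-bt are listed with equal values, so reads cannot be assigned to 1 copy there, and how they were divided in each group was not tested. The 7 fast or general muscle fibre markers summed to 101031 to 111380 CPM against 113862 to 123189 CPM, with 3 of 7 lower, and identified the tissue in every mouse. Among those 3 was Myh2, at 3019, 3463 and 4049 CPM against 9177, 4440 and 4624 CPM, with control mouse 2 far above the other control mice. The 3 slow fibre markers had higher means in the mAktDKO mice, at 341 to 763 CPM against 240 to 475 CPM in sum, with overlap, and 1 of them, Myh7, had an unadjusted p under 0.05 (log2 fold change 0.90). The part of these differences in the values of Klhl5, Klhl6, Klhl13 and the muscle-enriched members was not tested.

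**Figure D4:**
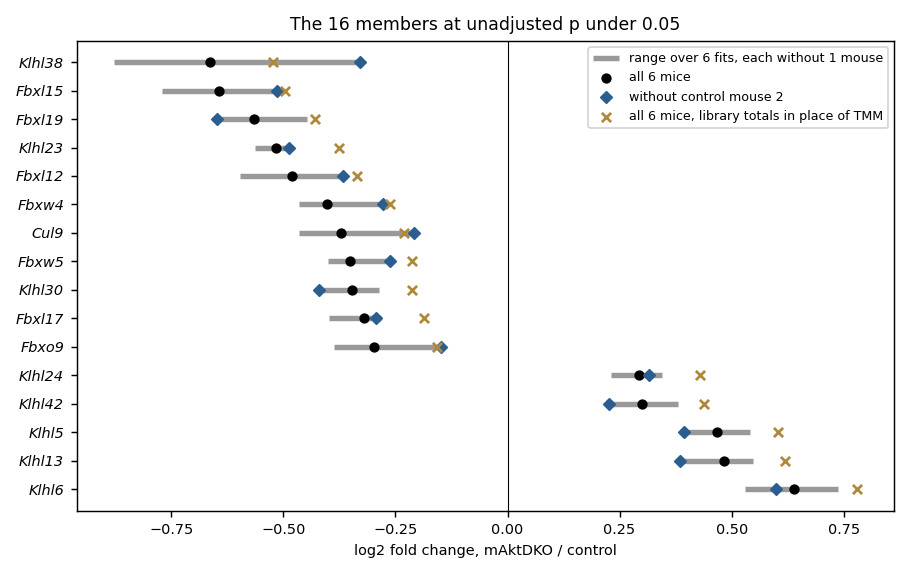
Log2 fold change of the 16 members at unadjusted p under 0.05 with all 6 mice (black), its range over the 6 fits that each left out 1 mouse (grey bar), without control mouse 2 (blue) and with library totals in place of TMM (brown). All 16 keep their sign throughout, and Klhl38, Cul9 and Fbxo9 shrink most without control mouse 2, to -0.33, -0.21 and -0.15.

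Control mouse 2 had the highest value of the 6 mice in 34 of the 87 tested members, 39.1%, against 29.0% of all tested genes. Without it, 10 members had an unadjusted p under 0.05, against 19.3% of the genes tested then, and Klhl23 was still past adjusted p under 0.05 (adjusted p = 0.0403, edgeR). Across genes, which are not independent replicates, log2 fold change and exon length had a Spearman correlation of 0.13 over 86 tested members and 0.22 over 12437 tested genes. The members lower at an unadjusted p under 0.05 had a median exon length of 3.09 kb and the higher ones 4.04 kb.

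Other genes of the pathway were taken from lists of regulators, linkers and further adaptors. Of 110 genes, 108 were tested, 0 passed adjusted p under 0.01 in edgeR (3 did in DESeq2: Asb2, Cdc34 and Fem1a) and 25 had an unadjusted p under 0.05 (23.1%, against 24.5% of all tested genes), 20 lower and 5 higher (18.5% and 4.63%, against 13.1% and 11.4%). Their median log2 fold change was -0.08. Cdc34, the ubiquitin-conjugating enzyme of SCF ligases, was at 83.9, 74.9 and 85.3 CPM in mAktDKO and 129, 113 and 108 CPM in control muscle. It was lower in every mAktDKO mouse and was the single gene of these lists past adjusted p under 0.05, with a log2 fold change of -0.52 (SE 0.09, adjusted p = 0.0474 by edgeR). Ube2d1, another such enzyme, lay the other way, at 121, 131 and 136 CPM against 104, 106 and 101 CPM (log2 fold change 0.32, SE 0.08, adjusted p = 0.0691).

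The modifier NEDD8 switches cullins on. Of its 11 genes, 2 (18.2%) were lower at an unadjusted p under 0.05, against 13.1% of all tested genes: Rnf7, the RING partner of Cul5, at 43.6, 36.0 and 39.4 CPM in the mAktDKO mice against 49.0, 46.5 and 48.3 CPM, and Dcun1d5, a NEDD8 ligase subunit, with a log2 fold change of -0.34. Of 10 genes that take NEDD8 off, those of the COP9 signalosome and Senp8, 2 (20%) were lower at an unadjusted p under 0.05, against 13.1% of all tested genes. Cops8 was at 39.1, 35.5 and 40.9 CPM against 52.6, 44.6 and 47.1 CPM, and Cops3 had a log2 fold change of -0.19. The exchange factors, which free a cullin of its adaptor, differed in opposite directions. Cand2, the form enriched in striated muscle, was at 125, 115 and 131 CPM against 168, 143 and 144 CPM, and Cand1, found in most tissues, at 52.7, 49.8 and 46.0 CPM against 37.1, 45.0 and 42.5 CPM. In neither gene did the groups overlap, and the adjusted p values were 0.112 and 0.160 by edgeR.

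The linkers Ddb1, at 214, 208 and 221 CPM against 244, 211 and 221 CPM, and Tceb1 (elongin C), with a log2 fold change of -0.15, had p above 0.05. Of 25 adaptors of the same folds under other names, Spop, a Cul3 adaptor without Kelch repeats, was at 252, 227 and 254 CPM against 283, 277 and 287 CPM, and Kctd17, another BTB protein, lay the other way with a log2 fold change of 0.53 (SE 0.20), or 0.31 without control mouse 2. Of 47 receptors on DDB1 and elongin, 11 were lower (23.4%, against 13.1% of all tested genes) and 2 higher (4.26%, against 11.4%) at an unadjusted p under 0.05. Klhdc3, a Cul2 receptor for C-terminal degrons, was at 78.8, 71.0 and 79.5 CPM against 97.0, 97.2 and 95.04 CPM, and Asb18 at 7.29, 7.25 and 5.62 CPM against 12.4, 10.9 and 8.77 CPM. Asb2, a muscle SOCS-box receptor named after its values were seen, was at 319, 237 and 359 CPM against 602, 429 and 436 CPM, with control mouse 2 the highest.

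**Figure D5:**
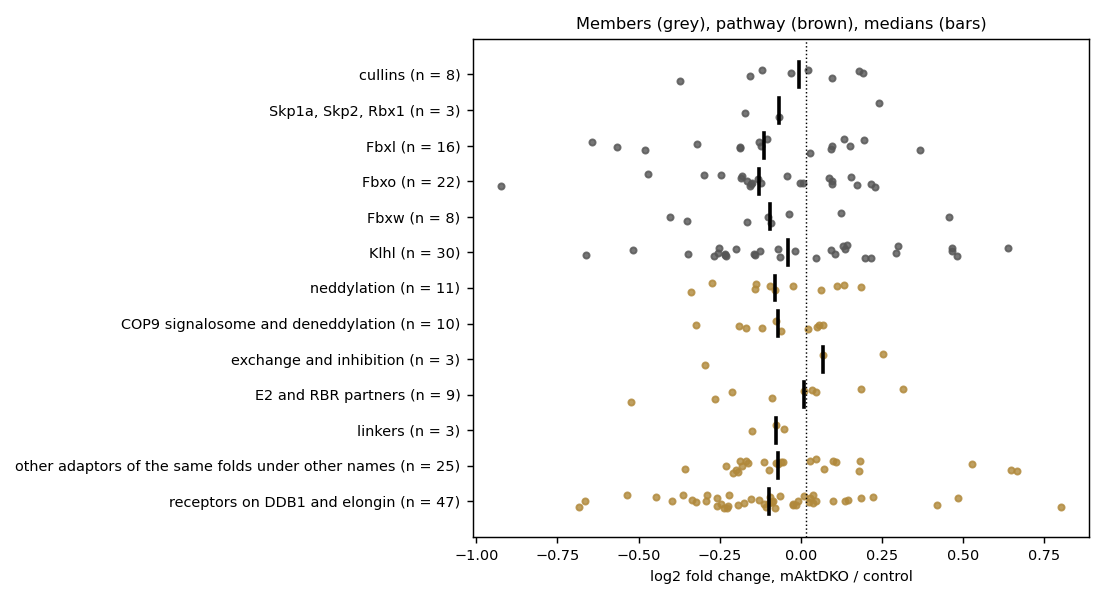
Log2 fold change of each tested gene, by family of members (grey) and by list of other pathway genes (brown), with 1 point per gene, a bar at the median and a dotted line at the median of all tested genes, 0.02. The medians of the Fbxl, Fbxo and Fbxw genes lie left of the line at -0.11, -0.13 and -0.10, and points lie on both sides in every family of members.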

How the data were processed

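Total RNA of EDL was depleted of ribosomal RNA and made into directional libraries, sequenced as short read pairs. The authors aligned reads to mm10 with STAR (version 2.6.1b per the submitters' processing notes) and counted genes with RSEM 1.3.1. The authors deposited estimated counts per gene, made by RSEM from the alignments, of which 3.36% to 4.09% per library were not whole. Here they were rounded, filtered by filterByExpr (minimum count 10), TMM-scaled and compared in edgeR 4.0.16 (R 4.3.3) by the quasi-likelihood test, mAktDKO against control (3 mice each), with Benjamini-Hochberg adjustment over all 12892 tested genes and a threshold of 0.01. CPM use TMM-scaled totals. SE is the log2 fold change over the square root of F. Exon lengths and positions came from GENCODE vM21 (119 of 120 members matched). The fit was also run on simulated data with planted changes larger than that of any member. That run thus does not cover differences of the size reported here. The exact permutation test could not go below p = 0.1 with 3 against 3.

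The members and lists were chosen with earlier results of these data known. Named genes were all cullins, Skp1a, Skp2 and Rbx1, the 4 smallest p and 2 highest levels per kb in each adaptor family, members past adjusted p under 0.05, and the 2 smallest p in each pathway list. DESeq2 1.42.0, other scalings and filters, each mouse left out, a threshold of 0.05 and removal of a length trend were tried as alternatives. The columns give each group but not which labelled control each one is, since they are numbered 2 to 4 and the labels 1 to 3. The labels number the samples of a group without naming animals, and each was taken as 1 mouse. The p-values set the difference between groups against the spread between these samples, with each gene's variance moderated across genes. Of the tested members, 22 of 86 share exon bases with another annotated gene. Of the members the rule names, 1 is not reported here, and members not named are given in counts and ranges.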

Additional observations from a re-analysis of the deposited data

How the results depend on the processing

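The number of genes called was 338 in DESeq2, 32 with no filter, 152 at adjusted p under 0.05, and 0 to 8 when each mouse was left out (8 without control mouse 2, 0 without any one of the mAktDKO mice). The number of members called was 1, Klhl23, in DESeq2 and at adjusted p under 0.05, and 0 under every other alternative run. Members at an unadjusted p under 0.05 numbered 10 to 18 with each mouse left out, 10 without mAktDKO mouse 2 and 10 without control mouse 2, or 11.4% to 20.5% of the tested members against 14.4% to 25.8% of all genes in the same fits. Members without overlap numbered 34 to 49, with 49 without mAktDKO mouse 3, where 2 against 3 values overlap less readily, or 39.1% to 56.3% of the tested members against 35.8% to 44.5% of all genes. The members' median of -0.07 became 0.066 with library totals, -0.11 with the length trend removed, and -0.099 to -0.037 with each mouse left out. In DESeq2 and with no filter it was -0.10, in both over 104 members of 17360 genes, in place of 87 of 12892. The DESeq2 value thus differs in the genes used as well as in the test. Relative to the median of all genes the members' median was -0.09 under both TMM and library totals. The share of higher genes among all at an unadjusted p under 0.05 went from 46.5% to 82.1%. Of the pathway genes, 3 were called in DESeq2, 1 at adjusted p under 0.05, and 13 to 30 had an unadjusted p under 0.05 with each mouse left out (13 without mAktDKO mouse 2, against 25).

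Small log2 fold changes changed sign: with library totals those of Rbx1 (0.070), Cul3 (0.11), Cul4a (0.018), Fbxw11 (0.10) and Ddb1 (0.063), which in these 5 is the shift of all genes, with a mouse left out those of Rbx1 (-0.14 to 0.0029, the highest without mAktDKO mouse 2), Cul2 (-0.029 to 0.043, the lowest without mAktDKO mouse 3) and Cul3 (-0.095 to 0.029, the highest without mAktDKO mouse 1), and with the length trend removed that of Cul2 (-0.026). The cause of the others was not tested. Of the other values of named genes under alternatives, 623 kept direction and side of the threshold and 4 newly passed it, those of Klhl23 and Cdc34 in DESeq2 and at 0.05. No named gene was past adjusted p under 0.01 in the main edgeR fit, so none could lose that side. The 623 also does not show how far estimates moved in size. No paired analysis was possible because no label ties a mAktDKO mouse to a control mouse by litter, batch or day, and the numbers of the control columns are not those of the labels. Depth limits the genes near 1 CPM, such as Fbxo36 and Skp2.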
